A study of Mus with 8 samples.

Results

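Csprs and the genes of the Sp100 family, Sp100, Sp110 and Sp140, were followed in monocytes from the bone marrow of mice with and without the Jak2 V617F mutation. These are 4 of the 17640 gene IDs counted. They were chosen from earlier results of these libraries: Csprs for its difference between the genotypes, and the other 3 as genes of the Sp100 cluster on mouse chromosome 1. The question was whether the genotype difference of Csprs is shared by the Sp genes. Because Csprs was chosen by that difference, its genotype values are a description and carry no test. The Sp genes were tested for the genotype difference, and all 4 genes for the effect of the gel, which played no part in the choice.

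The Sp genes encode nuclear proteins that bind chromatin and are induced by interferons. Sp100 is a constituent of the nuclear bodies built on the protein PML. Sp110 is known in mice as Ipr1, a name given for resistance to intracellular pathogens. Sp140 is a chromatin reader of immune cells that restrains the type I interferon response. Csprs takes its name from Sp100-rs, a chimeric gene of the house mouse that joins parts of Sp100 and Csprs and is repeated many times in a cluster on chromosome 1, with a number of copies that differs between mice. Near-identical copies make it uncertain to which gene a read belongs. In blood cells, Jak2 transmits the signals of cytokine receptors, and the V617F change, which keeps the kinase active, is a driver of myeloproliferative neoplasms.

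Control cells carried Vav-iCre, a recombinase expressed in blood-forming cells. Mutant cells carried Vav-iCre together with a knock-in of V617F at the endogenous Jak2 gene, so both groups share the recombinase. The strain was C57BL/6 in both, and the labels give no age for the mice. Monocytes obtained by negative selection were embedded in stiff hydrogels, viscous (VLVG in the titles) or elastic (NbTz), and kept there until day 3 with GM-CSF at 100 ng/mL, IL4 at 200 ng/mL and PGE2 at 100 ng/mL, before RNA was taken. Each of the 4 groups, 2 genotypes in 2 gels, held 2 libraries.

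A number at the end of each title is shared by 1 viscous and 1 elastic library of a genotype. Numbered from low to high, these pairs of libraries are called W1 and W2 for control cells and J1 and J2 for the mutant. What the number stands for is not stated, so the replicate spread behind each p-value could be technical in part. Depth ranged from 30632355 to 38408851 counts per library. Both W1 libraries stood apart from the other 6 on the first principal component of log2 CPM (41.5% of the variance, scores of 69.4 and 78.2 against −37.1 to −10.9), and results are given with and without them where they matter. The markers of monocytes and of other cells, and the level of Jak2, were not analysed here because the IDs come without names. RNA of a bulk sample cannot tell fewer cells of a type apart from less RNA per cell.

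In the RefSeq gene table of build GRCm38.p6, Sp110 (ENSMUSG00000070034) spans chr1:85570735-85610850, Sp140 (ENSMUSG00000070031) chr1:85587491-85645040 and Sp100 (ENSMUSG00000026222) chr1:85649948-85709998. They form a block of 139.3 kb in which Sp110 and Sp140 overlap over 23360 bp, or 58.2% of the length of Sp110, and 4907 bp separate Sp140 from Sp100. In the 500 kb before Sp110 the table lists 11 gene starts, of which 6 are protein-coding genes, 4 pseudogenes and 1 a long noncoding RNA. Csprs (ENSMUSG00000062783) is not placed in this block. It is listed under chromosome 1 from 111558 to 163011, among 48 entries that follow the end of the chromosome and whose coordinates begin again. This was read as a separate sequence of the assembly, whose name the table does not hold, and no distance between Csprs and the Sp genes is given here. It names no strand or exons, and no source used here says whether reads were assigned by strand, so how far the counts of Sp110 and Sp140 depend on how reads in their overlap were assigned was not tested.

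By its counts, Csprs was 3.87 times as abundant in Jak2 V617F as in control monocytes. Sp100, Sp110 and Sp140 differed by 1.06-fold to 1.14-fold, within the spread between libraries. How far the Csprs counts depend on how reads of near-identical copies were assigned was not tested. In control cells Csprs had 459 and 541 counts in viscous gel (W2 and W1) and 403 and 361 counts in elastic gel. In Jak2 V617F cells it had 2418 and 1864 counts in viscous gel (J1 and J2) and 1256 and 1713 counts in elastic gel. On the CPM scale, counts per 1000000 counts of a library total scaled by the trimmed mean of M-values (TMM), the control libraries lay at 11.7 to 14.7 CPM and the Jak2 V617F libraries at 36.6 to 61.2 CPM, so the lowest mutant library stood well above the highest control library. Of all 14785 IDs kept for testing, 3.5% also had all 4 Jak2 V617F libraries above all 4 control libraries; for Csprs this separation is part of why it was chosen.

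**Figure D1:**
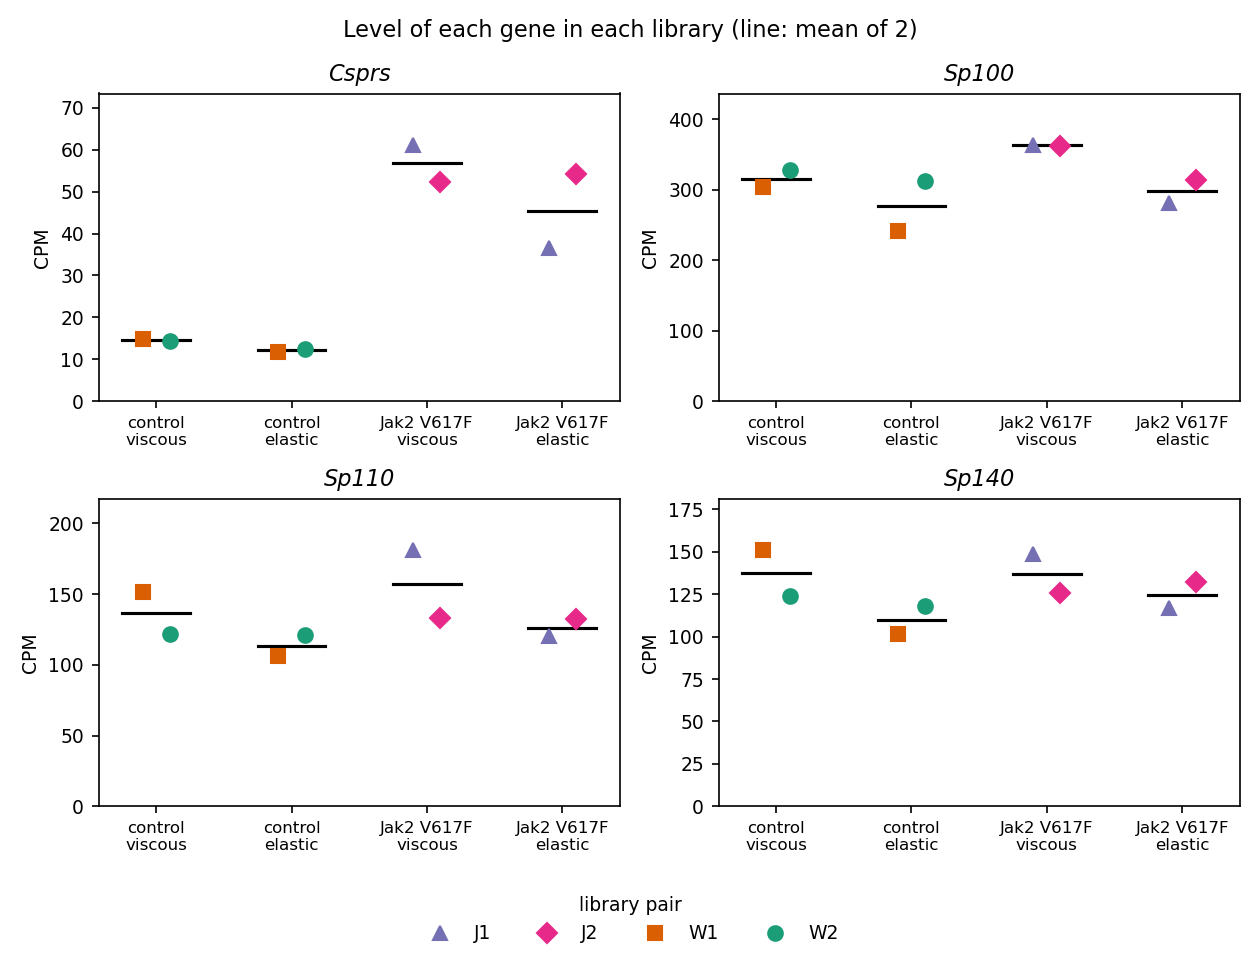
Level of each gene in CPM (vertical axes, starting at 0) in the 8 libraries, by genotype and gel; symbols mark the library pair and black lines the mean of 2 libraries. Csprs is separated by genotype (11.7 to 14.7 against 36.6 to 61.2 CPM), whereas the libraries of both genotypes overlap for Sp100, Sp110 and Sp140.

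By group, Csprs averaged 56.8 ± 6.28 CPM (SD, n = 2) for the mutant in viscous gel, 45.3 ± 12.4 for the mutant in elastic gel, 14.5 ± 0.313 in control cells in viscous gel and 12.1 ± 0.63 in control cells in elastic gel. The mutant groups at the top of this order overlap, since the elastic library of J2 (54.1 CPM) lay above its viscous partner (52.3 CPM). The control libraries lay at 14.3 and 14.7 CPM in viscous gel and at 11.7 and 12.6 CPM in elastic gel, and their difference did not pass the test given with the gel effects. The log2 fold change between the genotypes was 1.97 in viscous gel (3.91-fold), 1.90 in elastic gel (3.74-fold) and 1.95 on counts summed per title number (3.87-fold). In the summed comparison Csprs ranked 72nd of 15239 IDs by fold change, from the highest.

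Sp100, the PML body protein, stood at 303.3 (W1) and 328.5 CPM (W2) in control cells in viscous gel, and at 240.8 and 313.2 CPM in elastic gel. In Jak2 V617F cells it stood at 363.9 (J1) and 362.3 CPM (J2) in viscous gel, and at 281.4 and 314.1 CPM in elastic gel. Both mutant libraries were above both control libraries in viscous gel, and how many of all IDs show this was not counted. In elastic gel the values interleaved, and over all 8 libraries the genotypes overlapped. Its summed counts gave a log2 fold change of 0.17 (SE 0.15; 1.12-fold, 95% interval 0.848 to 1.49), with an edgeR quasi-likelihood adjusted p of 0.831.

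Sp110, the Ipr1 gene, stood at 151.5 (W1) and 122.1 CPM (W2) in control cells in viscous gel, and at 106.2 and 120.7 CPM in elastic gel. In Jak2 V617F cells it stood at 181.1 (J1) and 132.9 CPM (J2) in viscous gel, and at 120.05 and 132.1 CPM in elastic gel. The viscous library of J1 was the highest of the 8, and the other mutant libraries lay within the range of the control libraries. The summed log2 fold change was 0.19 (SE 0.13; 1.14-fold, 95% interval 0.888 to 1.46), with an edgeR adjusted p of 0.809.

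Sp140, the chromatin reader, stood at 151.003 (W1) and 124.0 CPM (W2) in control cells in viscous gel, and at 101.3 and 117.9 CPM in elastic gel. In Jak2 V617F cells it stood at 148.6 (J1) and 125.5 CPM (J2) in viscous gel, and at 116.6 and 132.2 CPM in elastic gel. Here the highest and the lowest of the 8 libraries were both control libraries, the viscous and the elastic one of W1. The summed log2 fold change was 0.08 (SE 0.11; 1.06-fold, 95% interval 0.861 to 1.30), with an edgeR adjusted p of 0.872.

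**Figure D2:**
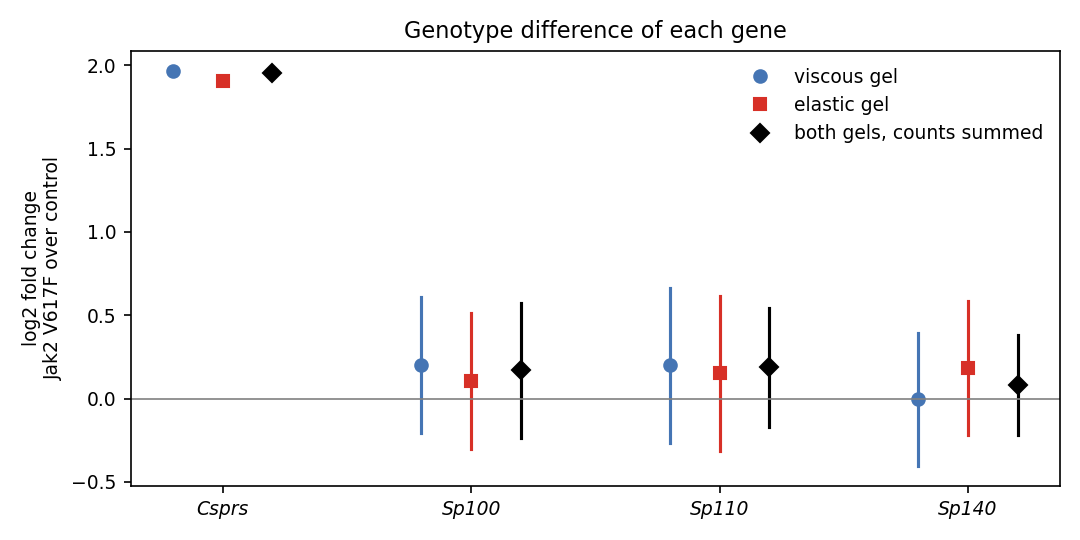
Log2 fold change of Jak2 V617F over control (vertical axis) in viscous gel, in elastic gel and on counts summed per title number; bars are 95% intervals of the edgeR fit, drawn for the 3 genes that were tested. Csprs lies at 1.90 to 1.97, and each interval of Sp100, Sp110 and Sp140 includes 0 and ends below 0.7.

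The genotype difference of Csprs was thus not seen at its size in any of the Sp genes. Of the 3 Sp genes, edgeR called 0 in the summed comparison at an adjusted p under 0.05. It called 0% of all 15239 IDs, so this result does not set the Sp genes apart from any other gene. That background depends on 1 sum and changed with the W2 sum left out. The fit without W2 has W1, the pair that stood apart, as the 1 control sum, which is assumed to vary like the mutant sums. Its calls cannot tell a genotype difference from what sets W1 apart, and they are not used here. In the main fit edgeR also called 0 of 3 at an unadjusted p under 0.05, where 5.22% of all IDs had such a p. DESeq2 called 0 of 3, against 0.696% of all IDs. The summed comparison sets 2 sums against 2, yet each 95% interval ended under 1.5-fold, at 1.49 for Sp100, 1.46 for Sp110 and 1.30 for Sp140, far from the 3.87-fold of Csprs. The lower ends of the intervals, 0.848, 0.888 and 0.861, leave room for a slightly lower level in the mutant as well. With 1 sum left out, the log2 fold change of Sp100 ran from 0.056 (without W1) to 0.30 (without W2). That of Sp110 ran from 0.077 (without J1) to 0.29 (without J2), and that of Sp140 from 0.052 to 0.12.

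Within viscous gel the log2 fold changes were 0.20 (SE 0.17) for Sp100, 0.20 (SE 0.19) for Sp110 and −0.005 (SE 0.17) for Sp140, with edgeR adjusted p-values of 0.761, 0.789 and 0.998. Within elastic gel they were 0.10 (SE 0.17), 0.15 (SE 0.19) and 0.18 (SE 0.17), with adjusted p-values of 0.954, 0.942 and 0.937. In both gels edgeR called 0% of all IDs, and 0 of the 3 Sp genes had an unadjusted p under 0.05 (7.31% of all IDs in viscous and 4.42% in elastic gel); DESeq2 called 0 of 3 in either gel, against 0.413% and 0.303%. The highest upper bound among these 6 intervals was 0.66, for Sp110 in viscous gel, or 1.58-fold. Without either W1 library, the log2 fold change of Csprs was 1.99 in viscous and 1.85 in elastic gel. Those of Sp100 were then 0.15 and −0.07, those of Sp110 0.36 and 0.06 and those of Sp140 0.15 and 0.08, with 0 called. These fits leave 1 control library, W2, in each gel, which is assumed to vary like the mutant groups. Sp100 in elastic gel and Sp140 in viscous gel thus changed sign without these libraries, and no direction can be given for them. Sp110 in viscous gel also turned, to −0.038, without the J1 library. Sp140 in viscous gel, at −0.005, took either sign over the alternatives.

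Against all IDs tested, the Sp genes sat above the middle, with Sp100 and Sp110 near the upper quartile. Their median log2 fold change in the summed comparison was 0.17, the median of all 15239 IDs was −0.005, and the middle part of all IDs, from the lower to the upper quartile, ran from −0.21 to 0.18. Lower fold changes than that of Sp100 were found in 74.2% of IDs, than that of Sp110 in 76.0% and than that of Sp140 in 63.5%. Csprs lay above 99.5% of IDs on the same scale.

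**Figure D3:**
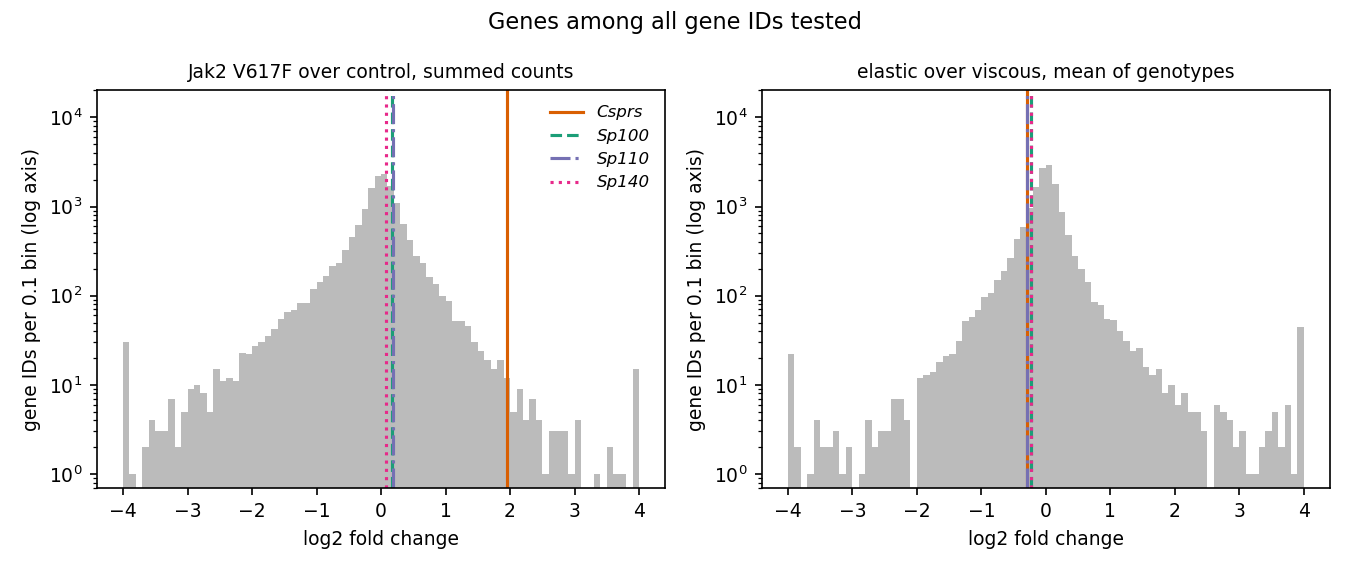
Number of gene IDs (vertical log axes) by log2 fold change (horizontal axes, bins of 0.1; the outermost bins hold all values beyond them) for the genotype difference on summed counts, left, and the gel effect averaged over genotypes, right; lines mark the 4 genes. On the left Csprs, at 1.95, stands apart from the Sp genes, at 0.08 to 0.19; on the right all 4 lie together, between −0.29 and −0.23.

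Ratios of counts within a library need no scaling between libraries, but they reuse the same counts. The part of reads shared by similar copies in these ratios was not tested. For every 1000 Sp100 counts there were 43.5 (W2) and 48.6 (W1) Csprs counts in control cells in viscous gel and 40.1 and 48.4 in elastic gel. In the mutant there were 168.2 (J1) and 144.4 (J2) in viscous gel and 130.0 and 172.3 in elastic gel. The genotypes did not overlap in this ratio, which contains the counts that chose Csprs. These ratios are compared between libraries only: without transcript lengths, the levels of different genes were not compared.

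As a share of the counts of the 4 genes, Csprs made up 2.22% (95% Wilson interval 2.02 to 2.45) to 2.54% (2.29 to 2.81) in the control libraries, and 6.59% (6.25 to 6.96) to 8.55% (8.17 to 8.95) in the Jak2 V617F libraries. The intervals cover counting error only. They say nothing of the spread between samples, or of how reads shared by similar transcripts were divided. The lowest mutant share, in the elastic library of J1, lay outside the intervals of the other 3 mutant libraries, so the mutant libraries differed among themselves by more than counting error.

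**Figure D4:**
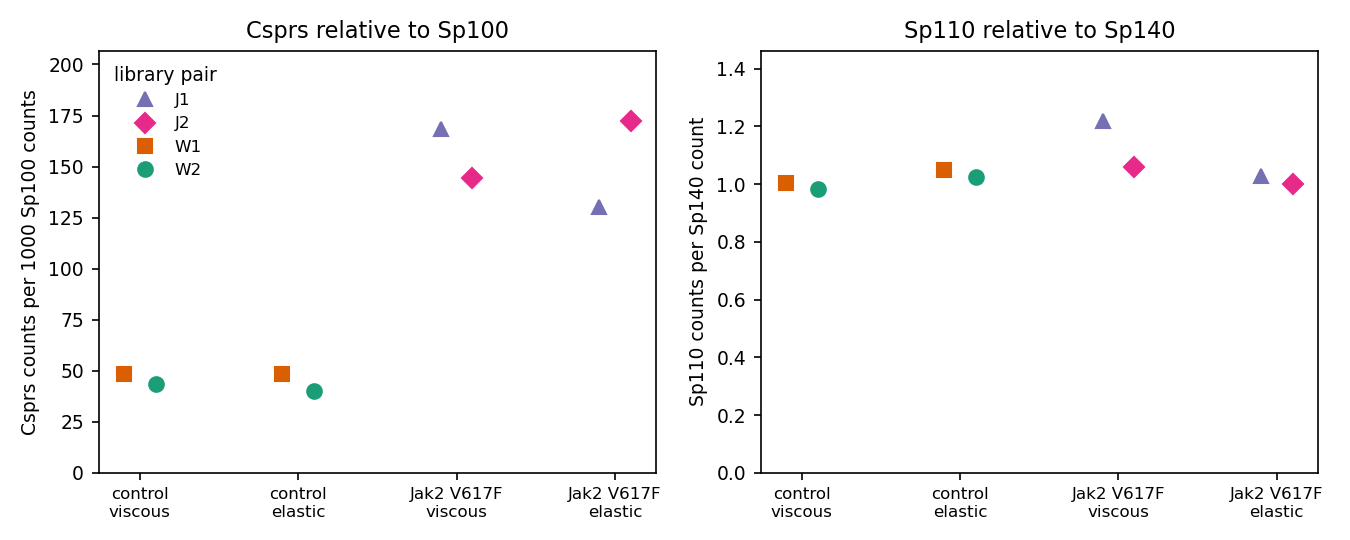
Csprs counts per 1000 Sp100 counts (left) and Sp110 counts per Sp140 count (right) in each library, by genotype and gel; symbols mark the library pair, and both axes start at 0. On the left the control libraries lie at 40.1 to 48.6 and the Jak2 V617F libraries at 130.0 to 172.3; on the right all 8 lie between 0.985 and 1.22.

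The overlapping genes Sp110 and Sp140 kept nearly the same proportion in most libraries. There were 0.985 (W2) and 1.003 (W1) Sp110 counts per Sp140 count in control cells in viscous gel and 1.02 and 1.05 in elastic gel. In the mutant there were 1.22 (J1) and 1.06 (J2) in viscous gel and 1.03 and 0.9995 in elastic gel. The viscous library of J1 stood above the rest. The part of reads in the overlap of the 2 genes in this was not tested.

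Over the 8 libraries, the pattern of log2 CPM most like that of Csprs, among 8771 IDs with a mean of at least 10 CPM, belonged to ENSMUSG00000022337 (Pearson r = 0.971, Spearman rho = 0.786). Next came ENSMUSG00000029098 (r = 0.967, rho = 0.952). The files give no names for these IDs. Their summed genotype differences were 1.15-fold and 1.45-fold, far smaller than that of Csprs. Sp100 ranked 1083rd (r = 0.575, rho = 0.667), Sp110 1301st (r = 0.537, rho = 0.714) and Sp140 2033rd (r = 0.414, rho = 0.643). These values are a description with no p: the libraries share title numbers, Csprs falls into 2 sets by genotype, and so r mainly reports how well an ID separates the genotypes.

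Gel was the comparison that did not enter the choice of genes. All 4 genes were lower on average in elastic than in viscous gel, by 1.18-fold to 1.23-fold, and none passed the test. Averaged over genotypes, the log2 fold change of elastic over viscous was −0.29 (SE 0.14) for Csprs, −0.24 (SE 0.12) for Sp100, −0.29 (SE 0.14) for Sp110 and −0.23 (SE 0.12) for Sp140. By edgeR the adjusted p-values were 0.845, 0.864, 0.832 and 0.86, and the unadjusted ones 0.0795, 0.0921, 0.0732 and 0.0912. edgeR called 0 of the 4 genes and 0% of all 14785 IDs, 0 of 4 had an unadjusted p under 0.05 (6.28% of all IDs), and DESeq2 called 0 of 4 (0.906% of all IDs). The median of the 4 genes was −0.27, where that of all IDs was −0.004 and the lower quartile −0.16. The 95% intervals ran from −0.63 to 0.05 for Csprs and from −0.52 to 0.05 for Sp140, so a change by 2-fold in either direction lay outside them.

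The elastic and viscous library of each title number are set side by side as a description, since what the number marks is not stated. Csprs was 1.26-fold lower in the elastic library of W1, 1.14-fold lower in W2 and 1.67-fold lower in J1, while in J2 it was 1.03-fold higher. Sp110 was 1.43-fold lower in W1 and 1.51-fold lower in J1, and within 1.01-fold in W2 and J2. Sp140 was 1.49-fold lower in W1 and 1.27-fold lower in J1, against 1.05-fold lower in W2 and 1.05-fold higher in J2. Sp100 was 1.26-fold lower in W1, 1.29-fold in J1, 1.15-fold in J2 and 1.05-fold in W2. One pair of each genotype, W1 and J1, thus held the larger gel differences of all 4 genes, and Sp100 and Sp110 were lower in the elastic library of all 4 pairs, as were 10.8% of all IDs. For 0 of the 4 genes did all viscous libraries lie above all elastic ones, as they did for 1.66% of all IDs. Without both W1 libraries the averaged log2 fold changes were −0.25 for Csprs, −0.18 for Sp100, −0.16 for Sp110 and −0.10 for Sp140.

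**Figure D5:**
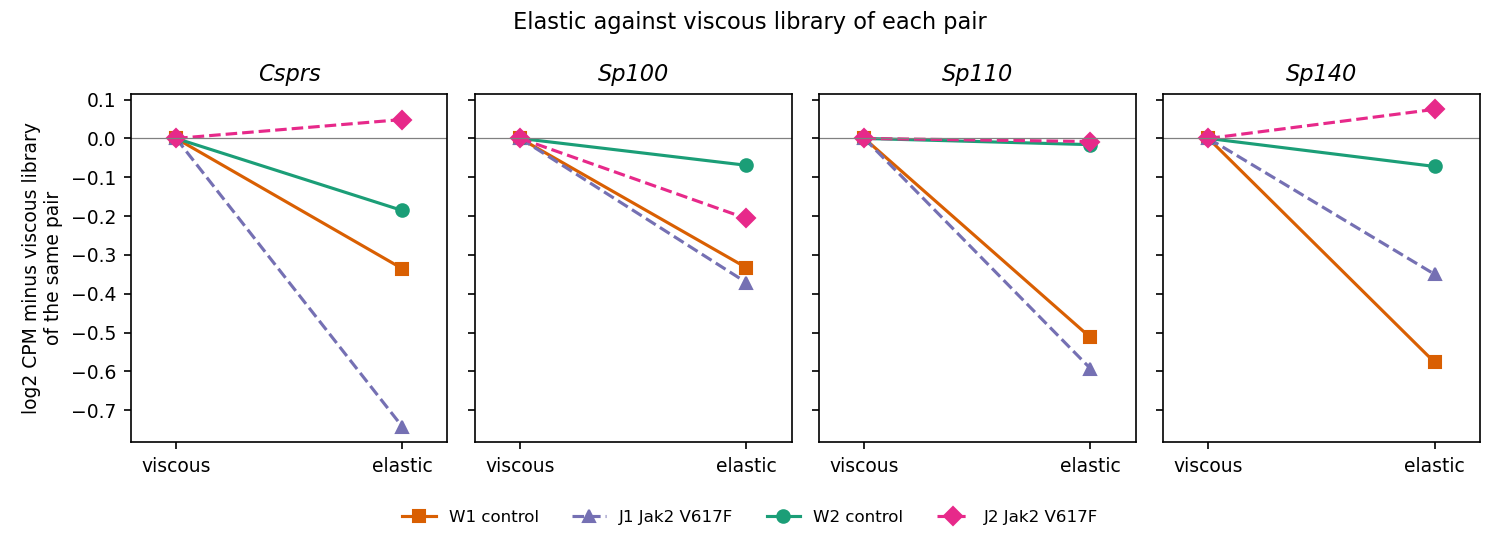
Log2 CPM of the elastic library minus that of the viscous library of the same pair (vertical axes) for each gene; solid lines are control and dashed lines Jak2 V617F cells. Lines of W1 and J1 run lowest for every gene, and those of W2 and J2 stay closer to 0, with Csprs and Sp140 slightly above 0 in J2.

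Within each genotype all 4 genes were again lower on average in elastic gel, and none passed the test. In control cells the log2 fold changes were −0.26 (SE 0.20) for Csprs, −0.19 (SE 0.17) for Sp100, −0.27 (SE 0.19) for Sp110 and −0.33 (SE 0.17) for Sp140, with an edgeR adjusted p of 0.985 for each. In the mutant they were −0.32 (SE 0.20), −0.29 (SE 0.17), −0.32 (SE 0.19) and −0.14 (SE 0.17), with an adjusted p of 1 for each. In both genotypes edgeR called 0% of all IDs, and 0 of the 4 genes had an unadjusted p under 0.05 (4.85% of all IDs in control cells and 3.08% in the mutant); DESeq2 called 0 of 4, against 0.251% and 0.237%. Without both W1 libraries the control values, which then rest on 1 library in each gel, were −0.18, −0.07, −0.01 and −0.07.

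The difference of the gel effects, Jak2 V617F minus control, was −0.06 for Csprs (SE 0.28, 95% interval −0.74 to 0.61). For this gene it is also the difference between its genotype effects in the 2 gels. Because Csprs was chosen by its genotype difference, its value and interval here are a description and carry no test. The difference of the gel effects was −0.10 (SE 0.24) for Sp100, −0.05 (SE 0.27) for Sp110 and 0.19 (SE 0.24) for Sp140. By edgeR the adjusted p of each Sp gene was 0.9999, and 0 of the Sp genes and 0% of all IDs were called. Among the Sp genes 0 had an unadjusted p under 0.05 (1.72% of all IDs), and DESeq2 called 0 (0.0135% of all IDs). On the fold scale the interval of Csprs ran from 0.599 to 1.53 times, its genotype difference in elastic gel over that in viscous gel.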

How the data were processed

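The 4 genes and the lists were chosen with earlier results of these data known. The authors deposited unnormalized whole counts by Ensembl ID in a series table, repeated without difference in 8 per-library files. Salmon, DESeq2 and build GRCm38 are named, with no versions, per the submitters' processing notes; summing to genes, rounding and strand are not given in the sources used here. Salmon divides reads shared by similar transcripts by estimation. No ID summed to under 10 counts over the libraries.

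Counts were fitted across all genes with edgeR 4.0.16 (R 4.3.3): filterByExpr by group (14785 IDs kept, all 4 genes among them), TMM scaling, a quasi-likelihood test with 4 group means over 8 libraries, two-sided, Benjamini-Hochberg adjustment over all IDs, threshold 0.05. The genotype comparison over both gels used counts summed per title number (15239 IDs). Log2 CPM used a prior count of 2. Standard errors came from the test statistic. Alternatives were DESeq2 1.42.0, limma-voom (limma 3.58.1), DESeq2 size factors, no filter, at least 50 counts in 2 or more libraries, each library or sum left out, a block on the title number, and averaging over libraries; leaving out both W1 libraries and DESeq2 averaged over libraries were chosen after seeing the data. The fits were also run on simulated data with the same dispersion for every gene and no outlying pair, so that run does not cover data with a pair like W1.

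The named genes are the 4 members and, by rule, at most 2 IDs most like Csprs. RefSeq's gene table (49997 genes) matched all 4 symbols but held an Ensembl ID for 0 genes, so other lists (neighbours, interferon genes, PML bodies, cell type markers) were not tested. Sequences were not used here. Figures were drawn with matplotlib 3.10.9.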

Additional observations from a re-analysis of the deposited data

How the results depend on the processing

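Of 123 alternative values of the Sp genes' genotype differences, 0 passed the threshold and 11 changed sign. A fit that leaves a lone library or sum in a group takes its spread from the other groups. All 41 values of Csprs lay between 1.602 and 2.16. All 192 alternative gel effects of the 4 genes were below 0, and 0 passed the threshold.

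Reversals came mostly from left-out libraries. With 1 library left out, the log2 fold change ran from −0.038 to 0.41 for Sp110 and from −0.13 to 0.15 for Sp140 in viscous gel, and from −0.0733 to 0.31 for Sp100 in elastic gel. The difference of gel effects ran from −0.37 to 0.19 (Csprs), −0.28 to 0.10 (Sp100) and −0.26 to 0.19 (Sp110). Sp140 in viscous gel was 0.0065 without a filter. Without both W1 libraries it was 0.15 by edgeR and 0.15 by DESeq2; Sp100 in elastic gel was −0.0737 and −0.0676, and the difference of gel effects of Sp140 −0.0698 and −0.0687. The cause was not tested.

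edgeR called 0 of all IDs in each comparison. DESeq2 called 61 for genotype in viscous gel, 44 in elastic gel, 106 on sums, 134 for gel averaged over genotypes, 35 for gel in control cells, 35 for gel in the mutant and 2 for the difference; without both W1 libraries 170, 58, 345, 104, 189 and 8 (no sums). On sums edgeR called 0 to 2664 with 1 sum left out (2664 without W2), 2 averaged over libraries, and DESeq2 336 so averaged. For gel over both genotypes edgeR called 1 without a filter, 1 with the stricter filter, 2 without both W1 libraries and 5 with the replicate block; for gel in Jak2 V617F cells 1 without both W1 libraries.

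With the title number as a replicate block, the averaged gel effects were −0.30 (Csprs), −0.24 (Sp100), −0.28 (Sp110) and −0.23 (Sp140), with adjusted p-values of 0.499, 0.412, 0.503 and 0.537, and no call on these genes changed. The deviations from the group means of a pair's libraries had r = 0.53 for control and −0.09 for mutant pairs, across genes. The number was not used as a block in the main fits, which thus leave the variation shared by control pairs in the replicate spread. Sums per number only avoid counting 2 libraries of a number as independent, and elastic minus viscous values by number carry no test. With 2 libraries a group, the 95% intervals of the Sp genes' genotype differences within a gel reached from 0.756-fold to 1.58-fold.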
